A study of Homo sapiens with 3 samples.

Results

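The CER1-high SOX17-negative cells were cells of 1 single-cell RNA library, from human stem cell colonies treated with CHIR99021 and Activin A, that carried at least 10 unique molecular identifiers (UMIs, counted transcripts) of CER1, 0 of SOX17 and at most 1 of MESP1. They numbered 396 of the 6876 cells kept in that library, or 5.76% (95% Clopper-Pearson interval 5.22 to 6.34), and the series held 23361 kept cells in 3 libraries. Cells were kept with at least 2000 detected genes and at most 15% of UMIs from mitochondrially encoded genes. The cells were selected on their measured UMIs of CER1, SOX17 and MESP1, so the levels of these 3 genes describe the rule and are no finding. The cells were set against 168 cells of the same library with at least 1 SOX17 UMI (SOX17-positive cells) and against its 3730 cells with 0 CER1 UMIs (CER1=0 cells).

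All libraries came from micropatterned colonies of HES3 Mixl1:GFP, an embryonic stem cell line of human origin in long use, with a reporter at MIXL1, seeded with 10 µM of the ROCK inhibitor Y-27632 and treated after 24 h for a further 48 h. The CHIR+Activin colonies received 3 µM of CHIR99021, a GSK3 inhibitor that activates WNT signalling, together with Activin A at 100 ng/mL, which acts on the receptors that NODAL uses. The CHIR colonies received 6 µM of CHIR99021 alone, and the BMP4 colonies 50 ng/mL of BMP4. Each treatment was 1 library of about 10 pooled micropatterns and no untreated library was analysed, so there is no replicate check and no test between groups of cells or treatments. Values are UMIs summed over a group's cells per 1000000 UMIs of the group (CPM), and log2 ratios carry exact 95% intervals that cover counting error only. Since the levels are summed over cells, fewer cells with a transcript and less transcript per cell give the same CPM. Shares of cells with a UMI are therefore given for the genes where this matters.

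CER1 encodes Cerberus, a secreted antagonist that binds NODAL and BMP ligands. In the mouse embryo it is made by the anterior visceral endoderm and then by the anterior definitive endoderm. In gastrulation, NODAL and Activin signals induce EOMES, MIXL1, GSC and LHX1 in the anterior primitive streak, and cells that go on to endoderm switch on SOX17, FOXA2 and CXCR4, while mesoderm switches on MESP1. GATA6 serves endoderm and early cardiac mesoderm alike. The cells described here had CER1 transcripts without a SOX17 UMI.

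In the CHIR+Activin library 610 kept cells reached 10 CER1 UMIs. The 396 CER1-high cells made up 64.9% of them (61.0 to 68.7), 148 had a SOX17 UMI and 66 had no SOX17 but at least 2 MESP1 UMIs. Of the 396, 344 had no MESP1 UMI and 52 had 1. The border with SOX17 was not sharp in counts. Among the 148 cells with both transcripts, 41 had 1 SOX17 UMI, 14 had 2, 49 had 3 to 9 and 44 had at least 10. A single SOX17 UMI was rare elsewhere in the library: 3 of 698 cells with at least 3 SOX2 UMIs and neither CER1 nor EOMES had one (0.430%). CER1 in the CER1-high cells ran from 10 to 132 UMIs, with quartiles of 12, 17 and 25, while the SOX17-positive cells had a median of 29.5 UMIs. Of the SOX17-positive cells 9 had no CER1 UMI, and these 9 also stand among the 3730 CER1=0 cells.

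Depth differed little from the SOX17-positive cells. The median was 18390.5 UMIs per CER1-high cell, 18931.5 per SOX17-positive cell and 16165 per CER1=0 cell, with median mitochondrial shares of 4.85% in CER1-high, 4.95% in SOX17-positive and 4.49% in CER1=0 cells. Doublets were not removed. Of the CER1-high cells 23 (5.81%) were among the 6% of barcodes with the highest doublet scores. Between 8 and 12 cell barcodes were shared by each pair of libraries. At the CER1 threshold, the 68 cells just inside it with 10 or 11 CER1 UMIs had 209 CPM of GATA6, 70.2 CPM of LHX1 and 216 CPM of EOMES. The 111 cells just outside it, with 8 or 9 CER1 UMIs, had 126 CPM of GATA6, 38.8 CPM of LHX1 and 203 CPM of EOMES. The threshold therefore cuts a range of levels and does not mark a gap.

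The 250 bases before the annotated start of CER1 and of the markers GATA6 and EOMES are shown for the letters that factors of this stage are known to bind. Sequences are from RefSeq (GRCh38.p14), 5′ to 3′ along the gene's strand, from chr9:14722734-14722983 (minus strand) for CER1, chr18:22169339-22169588 (plus strand) for GATA6 and chr3:27722324-27722573 (minus strand) for EOMES. Capitals mark matches to the motifs searched.
CER1: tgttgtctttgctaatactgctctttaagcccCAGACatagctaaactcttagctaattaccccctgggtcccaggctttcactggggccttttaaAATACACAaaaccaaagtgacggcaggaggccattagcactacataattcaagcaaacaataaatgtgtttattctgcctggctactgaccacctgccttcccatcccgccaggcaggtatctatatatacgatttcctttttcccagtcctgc
GATA6: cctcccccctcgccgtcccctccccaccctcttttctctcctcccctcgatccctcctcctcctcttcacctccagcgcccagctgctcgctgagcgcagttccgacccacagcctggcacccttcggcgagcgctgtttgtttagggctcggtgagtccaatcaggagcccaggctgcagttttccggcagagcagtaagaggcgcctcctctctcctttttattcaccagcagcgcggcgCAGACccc
EOMES: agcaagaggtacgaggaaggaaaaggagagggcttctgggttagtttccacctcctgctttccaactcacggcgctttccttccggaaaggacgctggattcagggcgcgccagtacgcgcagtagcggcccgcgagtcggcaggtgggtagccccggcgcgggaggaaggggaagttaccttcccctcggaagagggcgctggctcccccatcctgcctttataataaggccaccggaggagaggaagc
Motifs were searched on both strands. AATNCACA, the letters that FOXH1, the DNA-binding partner of SMAD2 and SMAD3, is known to read, stood 154 bases before the CER1 start and in 2.89% of all 35116 promoters. CAGAC, a short SMAD motif, stood 218 bases before the CER1 start and 8 bases before that of GATA6, and was in 38.0% of all promoters. The table held promoters of 10 of the 14 genes looked up, namely the 4 markers and the named genes higher in the CER1-high cells. CAGAC was in 6 of these 10 and AATNCACA in that of CER1 alone. The GATA motif AGATAA (9.17% of all promoters) and the T-box motif AGGTGTG (3.84%) were in 0 of the 10. TAATCC, read by OTX2 and GSC, was in 5.62% of all promoters and in that of LINC02955, where it recurred 5 times and overlapped no other motif. LHX1, FGF17, NTN1 and ENSG00000292246 had no entry. A match is a string of letters and not a measured binding site.

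The markers set the CER1-high cells well apart from the CER1=0 cells. GATA6, a zinc finger factor of endoderm and heart, was at 331 CPM in CER1-high cells, 518 CPM in SOX17-positive cells and 3.72 CPM in CER1=0 cells. Its log2 ratio to the CER1=0 cells was 6.47 (6.28 to 6.67). LHX1, a LIM homeobox factor of the anterior streak, was at 178 CPM in CER1-high cells, 426 CPM in SOX17-positive cells and 1.20 CPM in CER1=0 cells, a log2 ratio of 7.22 (6.89 to 7.56) to the CER1=0 cells. EOMES, the T-box factor needed for endoderm in mice, was at 314 CPM in CER1-high cells, 331 CPM in SOX17-positive cells and 41.0 CPM in CER1=0 cells, a log2 ratio of 2.94 (2.86 to 3.02) to the CER1=0 cells. At least 1 UMI each of GATA6, LHX1 and EOMES was found in 233 of 396 CER1-high cells (58.8%), 137 of 168 SOX17-positive cells (81.5%) and 8 of 3730 CER1=0 cells (0.214%). None of the 3 was found in 4 CER1-high cells (1.01%). Of the CER1-high cells 94.2% had a GATA6 UMI, 97.98% an EOMES UMI and 59.8% an LHX1 UMI.

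Thinning each cell to 10000 UMIs, which left out 6 CER1-high, 7 SOX17-positive and 250 CER1=0 cells, kept the gap for LHX1. It was then found in 48.7% of CER1-high cells, 78.3% of SOX17-positive cells and 0.862% of CER1=0 cells. Of the 698 cells with at least 3 SOX2 UMIs and neither CER1 nor EOMES, whose median depth was 18962 UMIs, 681 could be thinned, and 0.587% of these had an LHX1 UMI. GATA6 was found in 87.2% of thinned CER1-high cells, 88.2% of SOX17-positive cells, 3.13% of CER1=0 cells and 1.17% of those SOX2 cells.

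**Figure D1:**
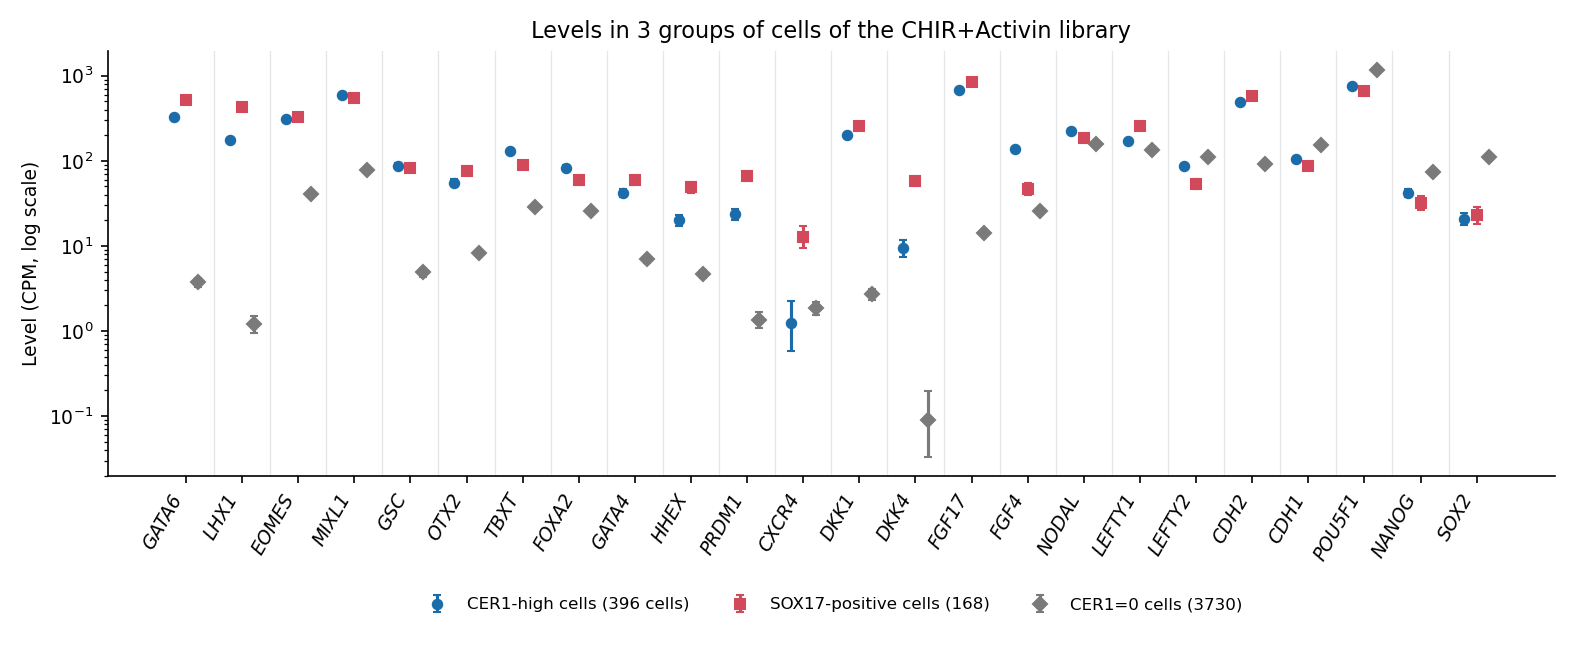
Levels (CPM, log axis) of 24 genes in the 396 CER1-high cells, the 168 SOX17-positive cells and the 3730 CER1=0 cells of the CHIR+Activin library. Points are summed UMIs scaled to CPM and bars exact 95% Poisson intervals, which cover counting error only. CER1-high and SOX17-positive cells sit close together for EOMES, MIXL1 and GSC, and apart for LHX1, PRDM1, CXCR4, DKK4 and FGF4.

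Among 10052 genes with at least 10 CPM in either group, 376 lay at least 2-fold higher (3.74%) and 361 at least 2-fold lower (3.59%) in CER1-high cells than in CER1=0 cells, and the median log2 ratio of all was 0.019. Against the cells with 1 to 9 CER1 UMIs, 217 of 9897 genes lay at least 2-fold higher (2.19%) and 117 lower (1.18%). The rule chose the upper end of a range of CER1 levels, so these counts describe that choice. All 8 measured genes of a list of anterior streak and organizer genes, CER1 left out, were at least 2-fold higher, with a median log2 ratio of 2.93. GSC, a homeobox repressor of the organizer, was at 86.4 CPM in CER1-high cells and 4.87 CPM in CER1=0 cells (log2 ratio 4.15, 3.96 to 4.34). OTX2, a homeobox factor of anterior tissue, was at 55.0 CPM in CER1-high cells and 8.19 CPM in CER1=0 cells. DKK1, a secreted WNT antagonist, was at 201 CPM in CER1-high cells and 2.71 CPM in CER1=0 cells (6.21, 5.99 to 6.44). FZD8, a WNT receptor, was at 14.1 CPM in CER1-high cells and 3.35 CPM in CER1=0 cells. HESX1, the ninth gene, did not reach 10 CPM and was at 3.19 CPM in CER1-high cells and 6.87 CPM in CER1=0 cells.

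Of 10 measured primitive streak genes 6 were at least 2-fold higher and 0 lower. MIXL1, the homeobox gene of the reporter, was at 589 CPM in CER1-high cells and 77.6 CPM in CER1=0 cells (2.92, 2.87 to 2.98). TBXT, the T-box factor of the streak, was at 130 CPM in CER1-high cells and 28.8 CPM in CER1=0 cells. FGF17 was at 670 CPM in CER1-high cells and 14.3 CPM in CER1=0 cells (5.55, 5.45 to 5.65), and FGF4 at 138 CPM in CER1-high cells and 25.9 CPM in CER1=0 cells. FGF8, which is made along the streak in mice, did not follow these 2 FGF ligands and was at 54.6 CPM in CER1-high cells and 64.6 CPM in CER1=0 cells. WNT3, NODAL and SP5 were within 2-fold, at log2 ratios of 0.63, 0.51 and 0.77.

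Endoderm genes other than SOX17 were divided. Of 12 listed genes beside CER1 and SOX17, 7 reached 10 CPM, and 6 of these were at least 2-fold higher. FOXA2, a forkhead factor of endoderm and node, was at 82.5 CPM in CER1-high cells and 25.9 CPM in CER1=0 cells (1.67, 1.54 to 1.80). GATA4, a partner of GATA6, was at 41.9 CPM in CER1-high cells and 6.95 CPM in CER1=0 cells. HHEX, a homeobox factor of anterior endoderm, was at 19.97 CPM in CER1-high cells and 4.69 CPM in CER1=0 cells. PRDM1, a zinc finger repressor, was at 23.4 CPM in CER1-high cells and 1.36 CPM in CER1=0 cells. CXCR4, a chemokine receptor used to sort definitive endoderm, was at 1.23 CPM in CER1-high cells and 1.85 CPM in CER1=0 cells. FOXA1 had 0 UMIs in CER1-high cells, where 3 UMIs would be 0.368 CPM, and HNF4A was at 0.490 CPM in CER1-high cells. FOXA3 was at 13.7 CPM in CER1-high cells and 12.4 CPM in CER1=0 cells.

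Of 17 measured epiblast genes 5 were at least 2-fold lower, 12 were within 2-fold and 0 were higher, with a median log2 ratio of -0.64. SOX2, which is lost from streak cells, was at 20.7 CPM in CER1-high cells and 110 CPM in CER1=0 cells (-2.41, -2.64 to -2.19). POU5F1, which streak cells keep for some time, was at 749 CPM in CER1-high cells and 1156 CPM in CER1=0 cells (-0.63, -0.66 to -0.59), and NANOG at 41.9 CPM in CER1-high cells and 73.4 CPM in CER1=0 cells. The other listed genes at least 2-fold lower were USP44, ESRG, SFRP2 and TERF1, at log2 ratios between -1.50 and -1.03. Among the largest negative ratios were those of RMST, a long noncoding RNA, at 13.2 CPM in CER1-high cells and 115 CPM in CER1=0 cells, and of PODXL, a sialomucin of the apical surface, at 16.5 CPM in CER1-high cells and 93.5 CPM in CER1=0 cells. PRUNE2, VSNL1, NTM, GPR160 and KCND2 had log2 ratios between -2.81 and -2.23.

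Other genes with high ratios to the CER1=0 cells follow, chosen by the rule for named genes. DSCAM, a cell adhesion molecule known from neurons, was at 304 CPM in CER1-high cells and 7.76 CPM in CER1=0 cells (5.29, 5.15 to 5.43). PLXNA2, a semaphorin receptor, was at 134 CPM in CER1-high cells and 5.13 CPM in CER1=0 cells. NTN1, the guidance ligand netrin 1, was at 256 CPM in CER1-high cells and 18.8 CPM in CER1=0 cells. CYP26A1, which degrades retinoic acid, was at 151 CPM in CER1-high cells and 8.28 CPM in CER1=0 cells. CALCR, the calcitonin receptor, and the noncoding LINC02955 had log2 ratios of 3.95 and 4.02. Of 13 measured genes of migration and guidance, 6 were at least 2-fold higher (APLNR, FLRT3, NTN1, SEMA6D, PLXNA2 and EPHA4) and 3 lower (CXCL12, APELA and SEMA3A).

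Of 10 measured NODAL ligands, receptors and transducers 0 were 2-fold apart, with a median log2 ratio of 0.21, and likewise 0 of 7 antagonists and feedback genes beside CER1, with a median of -0.02. With 3.74% of all genes higher and 3.59% lower, these counts do not set either list apart. NODAL was at 223 CPM in CER1-high cells and 157 CPM in CER1=0 cells (0.51, 0.43 to 0.58). LEFTY1, a secreted NODAL antagonist, was at 171 CPM in CER1-high cells and 134 CPM in CER1=0 cells, and LEFTY2 at 86.0 CPM in CER1-high cells and 110 CPM in CER1=0 cells. In the BMP pathway, BMP2 was at 43.4 CPM in CER1-high cells and 0.711 CPM in CER1=0 cells (5.93, 5.49 to 6.40), while the response genes ID1 and ID3 were at 126 and 140 CPM in CER1-high cells and 205 and 233 CPM in CER1=0 cells. Of 5 measured BMP response genes 4 lay within 2-fold, ID1 and ID3 among them, and SMAD6 was at least 2-fold higher. Their median log2 ratio was -0.31. Of 5 measured genes of a list of WNT antagonists, CER1 left out, 4 were at least 2-fold higher (DKK1, SFRP1, NOTUM and APCDD1) and SFRP2 was lower. Of 8 measured WNT response genes, NKD1 and LGR5 were at least 2-fold higher, RNF43 was lower and 5 lay within 2-fold, with a median log2 ratio of 0.53. LGR5, a WNT-responsive receptor, was at 16.2 CPM in CER1-high cells and 0.182 CPM in CER1=0 cells.

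Cadherins differed in both directions. CDH2, N-cadherin, was at 491 CPM in CER1-high cells and 92.97 CPM in CER1=0 cells (2.40, 2.34 to 2.46). CDH1, E-cadherin, was at 104 CPM in CER1-high cells and 153 CPM in CER1=0 cells (-0.55, -0.65 to -0.45), and EPCAM at 177 CPM in CER1-high cells and 215 CPM in CER1=0 cells. SNAI1, a repressor of E-cadherin, was at 22.7 CPM in CER1-high cells and 6.49 CPM in CER1=0 cells. HAS2, a hyaluronan synthase, was at 328 CPM in CER1-high cells and 64.3 CPM in CER1=0 cells. COL5A1 and COL5A2 were the only genes of 11 measured matrix genes at least 2-fold higher, at log2 ratios of 2.46 and 2.90.

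Against the SOX17-positive cells the CER1-high cells differed in far fewer genes. Among 9903 genes set side by side, 20 lay at least 2-fold higher (0.202%) and 93 at least 2-fold lower (0.939%), the rule's own genes included. The count of higher genes moved with the settings: it was 94 after thinning and 31 without the highest doublet scores. Against the 148 SOX17-positive cells that also had at least 10 CER1 UMIs, 55 of 9921 genes lay at least 2-fold higher (0.554%) and 124 lower (1.25%). EOMES, MIXL1 and GSC were level, at log2 ratios of -0.08, 0.11 and 0.06. All 17 measured epiblast genes lay within 2-fold, with a median log2 ratio of 0.15. S phase and mitosis lists of 15 genes each lay within 2-fold too, at medians of 0.01 and -0.01. With 0.202% of all genes higher and 0.939% lower, these counts do not set the epiblast, S phase or mitosis lists apart.

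Of 9 measured endoderm genes 3 were at least 2-fold lower in CER1-high cells and 0 higher. PRDM1 was at 23.4 CPM in CER1-high cells and 66.4 CPM in SOX17-positive cells (-1.50, -1.79 to -1.22). HHEX was at 19.97 CPM in CER1-high cells and 49.2 CPM in SOX17-positive cells (-1.30, -1.62 to -0.98). CXCR4 was at 1.23 CPM in CER1-high cells and 12.8 CPM in SOX17-positive cells (-3.38, -4.53 to -2.38). FOXA2 stood on the other side, at 82.5 CPM in CER1-high cells and 59.7 CPM in SOX17-positive cells (0.47, 0.24 to 0.69). After thinning a FOXA2 UMI was found in 46.7% of CER1-high cells, 33.5% of SOX17-positive cells, 17.3% of CER1=0 cells and 8.81% of the SOX2 cells without CER1 and EOMES. LHX1 and GATA6, the markers of the CER1-high cells, were lower in them than in SOX17-positive cells, at log2 ratios of -1.26 (-1.37 to -1.16) and -0.65 (-0.73 to -0.56).

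Among genes outside the rule with at least 50 CPM in the SOX17-positive cells, LRP1B and DKK4 had the largest negative ratios. LRP1B, a receptor of the LDL receptor family, was at 7.96 CPM in CER1-high cells and 74.5 CPM in SOX17-positive cells (-3.22, -3.64 to -2.83). DKK4, a secreted WNT antagonist, was at 9.43 CPM in CER1-high cells and 57.5 CPM in SOX17-positive cells (-2.61, -3.00 to -2.22), whereas DKK1 was at 201 CPM in CER1-high cells and 260 CPM in SOX17-positive cells. NTN4, a netrin of basement membranes, was at 22.5 CPM in CER1-high cells and 68.9 CPM in SOX17-positive cells. FREM1, a matrix protein, was at 64.2 CPM in CER1-high cells and 179 CPM in SOX17-positive cells, and RHOBTB3 at 89.8 CPM in CER1-high cells and 301 CPM in SOX17-positive cells. PLSCR2, EPIC1, COL23A1 and DNAJC15 had log2 ratios between -2.09 and -1.30. VIM, the intermediate filament of mesenchyme, was at 96.4 CPM in CER1-high cells and 214 CPM in SOX17-positive cells (-1.15, -1.29 to -1.003). The SOX17-positive cells also had more CER1, with a median of 29.5 UMIs against 17 in CER1-high cells. The part of CER1 level in the ratios to SOX17-positive cells was not tested.

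Among genes with at least 50 CPM in CER1-high cells, FGF4 had the largest ratio to SOX17-positive cells. It was at 138 CPM in CER1-high cells and 47.0 CPM in SOX17-positive cells (1.56, 1.32 to 1.80), and the ratio was 1.53 against the SOX17-positive cells with at least 10 CER1 UMIs. FGF19 was at 44.8 CPM in CER1-high cells and 18.9 CPM in SOX17-positive cells (1.25, 0.87 to 1.64). SLIT2, a guidance ligand, was at 52.0 CPM in CER1-high cells and 26.1 CPM in SOX17-positive cells (0.99, 0.67 to 1.33). GLIPR1L1, LINC01829, TENM4 and ADCY2 followed at log2 ratios between 0.94 and 0.64. LEFTY2 was at 86.0 CPM in CER1-high cells and 53.3 CPM in SOX17-positive cells, whereas LEFTY1 was at 171 CPM in CER1-high cells and 254 CPM in SOX17-positive cells. These 2 NODAL antagonists thus lay on opposite sides, at log2 ratios of 0.69 (0.46 to 0.93) and -0.57 (-0.69 to -0.45).

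**Figure D2:**
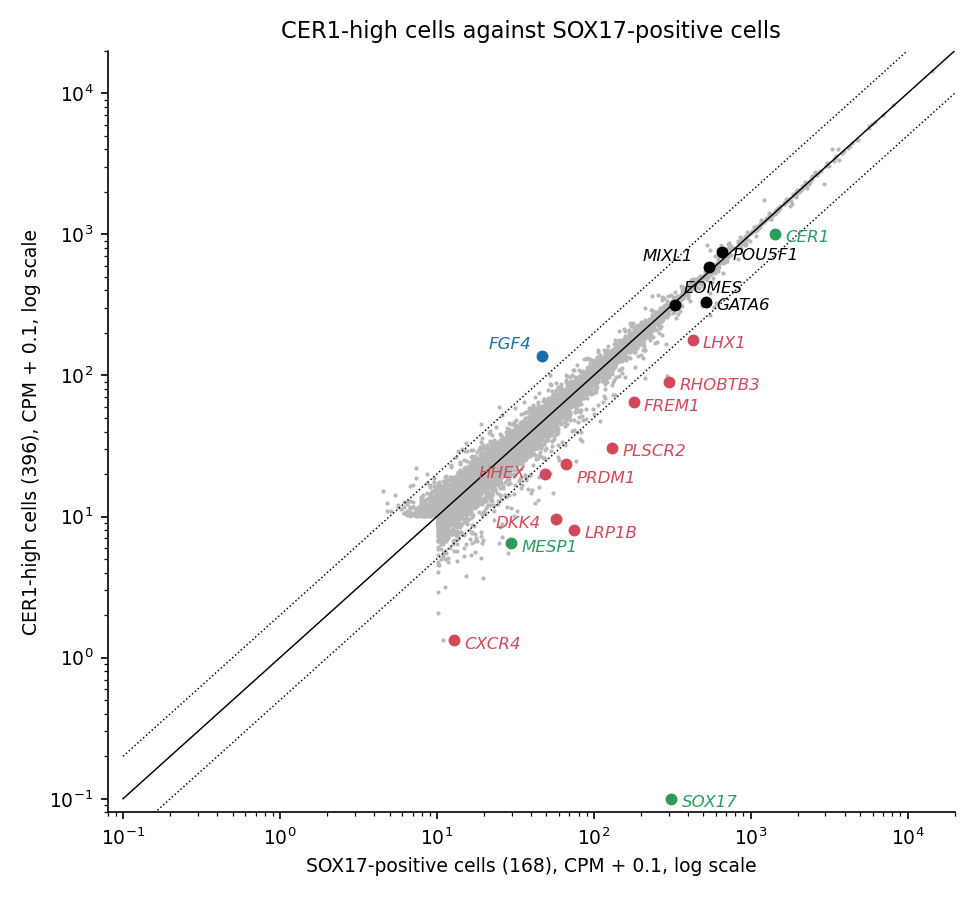
Level of each of the genes compared in CER1-high cells (vertical) against SOX17-positive cells (horizontal), as CPM plus 0.1 on log axes. The solid line is equality and the dotted lines are 2-fold. Green names are the rule's genes, red and blue names genes lower and higher in CER1-high cells, and black names other markers. Most genes lie within the dotted lines, LRP1B, DKK4 and CXCR4 lie well below them, and FGF4 lies above.

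Levels were also taken cell by cell. Scaled to 10000 UMIs of each cell, LHX1 had a median of 0.698 UMIs in CER1-high cells with quartiles of 0 and 2.65, against 3.31 with quartiles of 0.791 and 7.42 in SOX17-positive cells, and a median of 0 in CER1=0 cells. GATA6 had medians of 3.16 in CER1-high cells, 5.33 in SOX17-positive cells and 0 in CER1=0 cells. EOMES had medians of 2.99 in CER1-high cells, 3.15 in SOX17-positive cells and 0 in CER1=0 cells, and in CER1-high cells its quartiles were 1.91 and 4.49 and its 5th percentile 0.534. FGF4 had medians of 1.10 in CER1-high cells, 0.120 in SOX17-positive cells and 0 in CER1=0 cells. The boxes of LHX1 overlap between CER1-high and SOX17-positive cells, while those of POU5F1 in CER1-high cells (quartiles 5.53 and 8.86) and in CER1=0 cells (9.21 and 13.7) do not.

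**Figure D3:**
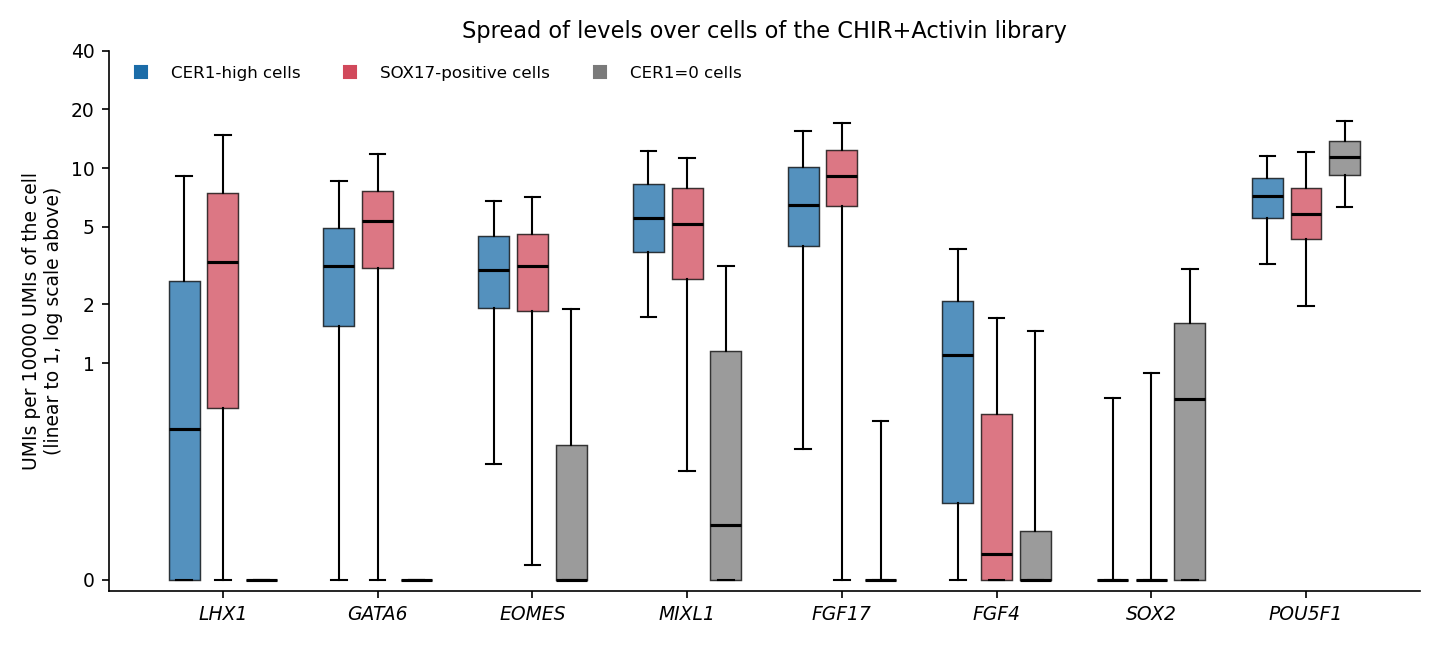
UMIs of 8 genes per 10000 UMIs of each cell (axis linear to 1 and log above) in CER1-high, SOX17-positive and CER1=0 cells of the CHIR+Activin library. Lines are medians, boxes quartiles and whiskers the 5th and 95th percentiles over cells of the 1 library, which are not replicates. FGF4 boxes are highest in CER1-high cells, and SOX2 boxes lie at 0 in CER1-high and SOX17-positive cells.

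The 66 cells with at least 10 CER1 UMIs, no SOX17 and at least 2 MESP1 UMIs were the neighbours on the mesoderm side. The comparison held 9998 genes, of which 158 lay at least 2-fold higher (1.58%) and 191 lower (1.91%) in the CER1-high cells. FOXA2 was at 82.5 CPM in CER1-high cells and 20.5 CPM in the MESP1 cells (2.01, 1.46 to 2.61). HAND1, a bHLH factor of lateral and cardiac mesoderm, was at 5.27 CPM in CER1-high cells and 54.3 CPM in the MESP1 cells (-3.36, -3.94 to -2.80). APLNR, the apelin receptor of early mesoderm, was at 12.01 CPM in CER1-high cells and 69.7 CPM in the MESP1 cells, and WNT5A at 20.5 CPM in CER1-high cells and 110 CPM in the MESP1 cells. LHX1 and GATA6 were lower in CER1-high cells here too, at log2 ratios of -1.15 and -0.73. GSC did not differ beyond counting error (0.07, -0.22 to 0.37). The MESP1 cells had a median of 27.5 CER1 UMIs, against 17 in CER1-high cells. Levels of FOXA2, WNT5A, LHX1 and GATA6 also varied with CER1 UMIs among the CER1-high cells, as given below. The part of CER1 level in the ratios to the MESP1 cells was not tested.

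Levels followed CER1 inside and below the threshold. In cells with no SOX17 and at most 1 MESP1 UMI, tiers of 0, 1, 2 to 4, 5 to 9, 10 to 19, 20 to 39 and at least 40 CER1 UMIs held 3721, 1089, 1014, 409, 244, 127 and 25 cells. Along these tiers GATA6 was at 3.73, 8.04, 26.5, 102, 260, 421 and 534 CPM. LHX1 stayed low for longer, at 1.20, 1.17, 4.20, 21.2, 102, 263 and 448 CPM. EOMES spanned less, at 40.9, 70.8, 110, 179, 274, 366 and 418 CPM. All 3 were higher in every tier than in the one before, except LHX1 at 1 CER1 UMI.

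HAS2 was flat up to the tier of 2 to 4 CER1 UMIs, with 64.2, 63.3 and 62.4 CPM, and then at 86.1, 245, 407 and 685 CPM. SOX2 went the other way, at 110, 92.8, 69.5, 31.6, 24.4, 15.5 and 11.7 CPM, as did POU5F1, at 1156, 1103, 1051, 937, 796, 698 and 579 CPM. FOXA2 was highest in the middle, at 25.9, 35.7, 55.8, 81.7, 91.6, 78.8 and 21.8 CPM. LEFTY2 was highest at 2 to 4 CER1 UMIs (187 CPM) and at 43.6 CPM in the top tier, and FGF4 highest at 10 to 19 (151 CPM) and at 104 CPM in the top tier. Tiers of CER1 UMIs per 10000 UMIs of the cell, added after the data were seen, gave FOXA2 a like course, with 95.7 CPM at 5 to 10 and 31.0 CPM in the 35 cells at 20 or more. The 25 cells at 40 or more CER1 UMIs carried WNT5A at 77.2 CPM and LGR5 at 57.1 CPM, against 9.82 and 7.41 CPM in the 244 cells at 10 to 19. Between these tiers, 507 of 10356 genes lay at least 2-fold higher (4.9%) and 394 lower (3.8%), with few UMIs behind most values of the 25 cells.

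**Figure D4:**
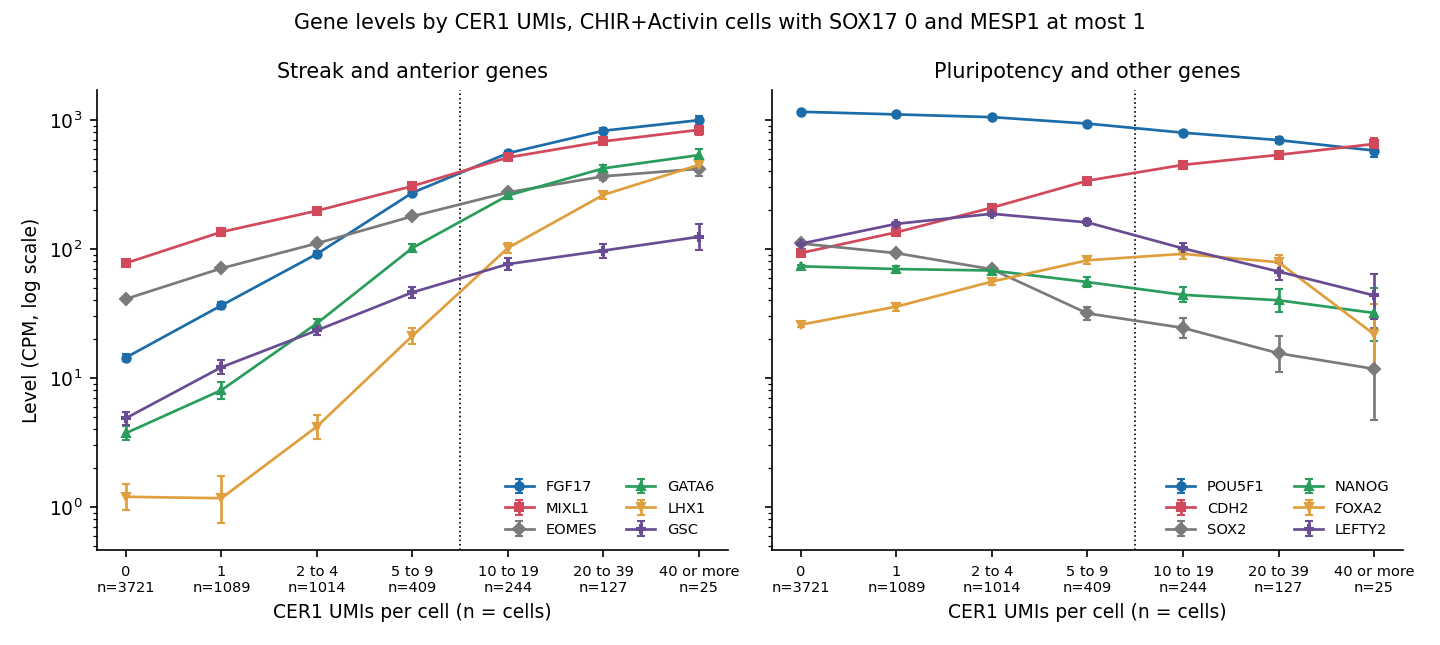
Levels (CPM, log axis) of 12 genes by CER1 UMIs per cell, for CHIR+Activin cells with 0 SOX17 and at most 1 MESP1 UMI. Bars are exact 95% Poisson intervals of the summed UMIs and the dotted line marks the threshold of 10. GATA6, FGF17 and MIXL1 climb across the threshold without a step, LHX1 leaves its floor after the tier of 1 UMI, and FOXA2 is lowest at both ends.

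The CER1-high cells were also split by LHX1, a split added after the data were seen. The 237 cells with an LHX1 UMI had a median depth of 17671 UMIs, and the 159 without had 19794. Median CER1 was 19 UMIs in cells with LHX1 and 14 UMIs in cells without. The part of CER1 level in the ratios of this split was not tested. Among 9872 genes, 116 lay at least 2-fold higher (1.18%) and 29 lower (0.294%) in cells with LHX1. HHEX was at 31.2 CPM in cells with LHX1 and 5.13 CPM in cells without (2.60, 1.89 to 3.40). PLSCR2 was at 51.4 CPM in cells with LHX1 and 3.14 CPM in cells without. RHOBTB3 was at 139 CPM in cells with LHX1 and 24.2 CPM in cells without, and HAS2 at 469 CPM with and 142 CPM without. PDGFRA, a growth factor receptor of early mesoderm and primitive endoderm, was at 55.0 CPM in cells with LHX1 and 9.69 CPM in cells without, and BMP2 at 61.9 CPM in cells with LHX1 and 18.8 CPM in cells without. GATA6 was at 425 CPM in cells with LHX1 and 206 CPM in cells without. LEFTY2 lay lower, at 51.4 CPM in cells with LHX1 and 132 CPM in cells without (-1.36, -1.59 to -1.13), and so did FGF4, at 113 CPM with LHX1 and 172 CPM without. After thinning, 190 cells with LHX1 and 200 without gave log2 ratios of 3.49 for PLSCR2, 2.50 for RHOBTB3, 2.15 for HHEX and -1.37 for LEFTY2.

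FOXA2 divided the cells differently. The 233 cells with a FOXA2 UMI were deeper (median 19313 UMIs) than the 163 without (17149). Here 33 of 9863 genes lay at least 2-fold higher (0.335%) and 43 lower (0.436%). DDIT4, a stress-inducible inhibitor of mTORC1, was at 98.2 CPM in cells with FOXA2 and 37.7 CPM in cells without (1.38, 1.09 to 1.68, and 1.02 after thinning). BNIP3 and FAM162A, both known as hypoxia-inducible, were at 374 and 113 CPM in cells with FOXA2 and at 233 and 69.6 CPM in cells without. LHX1 was at 146 CPM in cells with FOXA2 and 228 CPM in cells without (-0.64, -0.79 to -0.49), and BMP2 at 32.0 CPM in cells with FOXA2 and 61.6 CPM in cells without. EOMES, MIXL1 and TBXT were level, at log2 ratios of -0.04, 0.06 and -0.11.

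TBXT, the streak factor, had a UMI in 335 CER1-high cells and none in 61. Among 10036 genes, 88 lay at least 2-fold higher (0.877%) and 93 lower (0.927%) in cells with TBXT. FOXA2 was at 73.7 CPM in cells with TBXT and 140 CPM in cells without, and LHX1 at 160 CPM in cells with TBXT and 296 CPM in cells without. These log2 ratios, -0.92 and -0.89, came to -0.46 and -0.30 after thinning, where 259 cells had a TBXT UMI and 131 had none. UMIs of both FOXA2 and TBXT were found in 193 of 396 CER1-high cells (48.7%), 58 of 168 SOX17-positive cells (34.5%) and 449 of 3730 CER1=0 cells (12.04%). Neither was found in 21 CER1-high cells (5.30%).

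The same rule was then applied to the other treatments. It took 396 cells under CHIR+Activin, 190 of 7084 kept cells (2.68%, 2.32 to 3.09) under CHIR and 155 of 9401 (1.65%, 1.40 to 1.93) under BMP4. Depth differs between these libraries, with median UMIs of 18390.5 under CHIR+Activin, 29624.5 under CHIR and 11235 under BMP4 in the cells taken. After thinning to 10000 UMIs the shares were 3.09% under CHIR+Activin, 0.450% under CHIR and 1.70% under BMP4, so that the order of CHIR and BMP4 turned round. CHIR+Activin had the highest share in both. Thinning left out 333 kept cells under CHIR+Activin, 192 under CHIR and 2360 under BMP4, and the rule was applied to the thinned counts. Cells that lost SOX17 or MESP1 UMIs could then meet it. Under BMP4 it took 120 thinned cells, though only 104 of the 155 cells taken before could be thinned. Under BMP4 most cells with at least 10 CER1 UMIs stood outside the rule: of 1394, 960 had no SOX17 but at least 2 MESP1 UMIs and 279 had SOX17. Under CHIR 190 of 198 such cells met the rule, and only 7 kept cells of that library had a SOX17 UMI.

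Of 10 measured primitive streak genes, FGF17 alone was 2-fold apart from CHIR, and FGF8, FGF4 and NODAL from BMP4, all higher under CHIR+Activin. FGF17 was at 670 CPM under CHIR+Activin, 295 CPM under CHIR and 551 CPM under BMP4. Of 7 measured NODAL antagonists and feedback genes 0 were 2-fold apart from CHIR, and LEFTY1 and LEFTY2 were at least 2-fold higher than under BMP4. Between CHIR+Activin and CHIR, 77 of 10005 genes lay at least 2-fold higher (0.77%) and 83 lower (0.83%). Beside these shares, 0 of 7 does not set the NODAL antagonists and feedback genes apart. LHX1 was at 178 CPM under CHIR+Activin and 65.9 CPM under CHIR (1.43, 1.27 to 1.59). GATA6 was at 331 CPM under CHIR+Activin and 144 CPM under CHIR (1.20, 1.09 to 1.31). CER1 itself was at 1004 CPM under CHIR+Activin and 505 CPM under CHIR, where cells were deeper and the raw threshold reached lower levels, so the part of CER1 level in these ratios was not tested. HAS2 and COL5A2 had log2 ratios of 1.43 and 1.52. Of 4 measured nascent and paraxial mesoderm genes, APLNR, PDGFRA and HAS2 were at least 2-fold higher than under CHIR. NODAL, FGF4 and LEFTY1 were close, at log2 ratios of 0.04, 0.12 and 0.22. FOXA2 was at 82.5 CPM under CHIR+Activin and 118 CPM under CHIR (-0.51, -0.67 to -0.36), and DDIT4 at 74.99 CPM under CHIR+Activin and 178 CPM under CHIR. The CHIR99021 dose also differed between these colonies, so Activin A and dose cannot be told apart.

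Against BMP4 the counts were larger, at 264 of 10073 genes at least 2-fold higher (2.62%) and 240 lower (2.38%). FOXA2 was at 82.5 CPM under CHIR+Activin and 4.01 CPM under BMP4 (4.36, 3.38 to 5.58), and a FOXA2 UMI was found in 58.8% of the CHIR+Activin cells and 5.16% of the BMP4 cells. LEFTY1 was at 171 CPM under CHIR+Activin and 24.6 CPM under BMP4 (2.80, 2.39 to 3.24), and LEFTY2 at 86.0 CPM under CHIR+Activin and 10.0 CPM under BMP4. NODAL was at 223 CPM under CHIR+Activin and 92.7 CPM under BMP4. FGF8 was at 54.6 CPM under CHIR+Activin and 12.03 CPM under BMP4. HAND1 was at 5.27 CPM under CHIR+Activin, 0 UMIs under CHIR (where 3 UMIs would be 0.477 CPM) and 55.1 CPM under BMP4. Of 8 measured nascent and paraxial mesoderm genes, 7 were at least 2-fold lower under CHIR+Activin than under BMP4, APLNR, PDGFRA and HAS2 among them. MESP1 was capped by the rule in both, but 88 of the 155 BMP4 cells and 52 of the 396 CHIR+Activin cells had 1 MESP1 UMI. The part of this imbalance in the mesoderm ratios was not tested. ID1 and ID3, targets of BMP signalling, were at 126 and 140 CPM under CHIR+Activin and 336 and 322 CPM under BMP4. NTS, which encodes neurotensin, was at 90.9 CPM under CHIR+Activin and 754 CPM under BMP4. MIXL1, OTX2, GATA4 and HHEX were level, at log2 ratios of -0.08, -0.12, 0.05 and -0.11. LHX1 was lower under CHIR+Activin, at 178 CPM, than under BMP4, at 620 CPM. The cells taken had a median of 19 CER1 UMIs at a median depth of 11235 UMIs under BMP4. Under CHIR+Activin these medians were 17 and 18390.5, so CER1 relative to depth was higher under BMP4. The part of CER1 level in the ratios to BMP4 was not tested. Over all kept cells, the same 7 mesoderm genes were at least 2-fold lower under CHIR+Activin than under BMP4, as were HAND1, ID1 and ID3. FOXA2, FGF8, NODAL, LEFTY1 and LEFTY2 were at least 2-fold higher there too. Those differences were thus shared by the whole libraries.

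**Figure D5:**
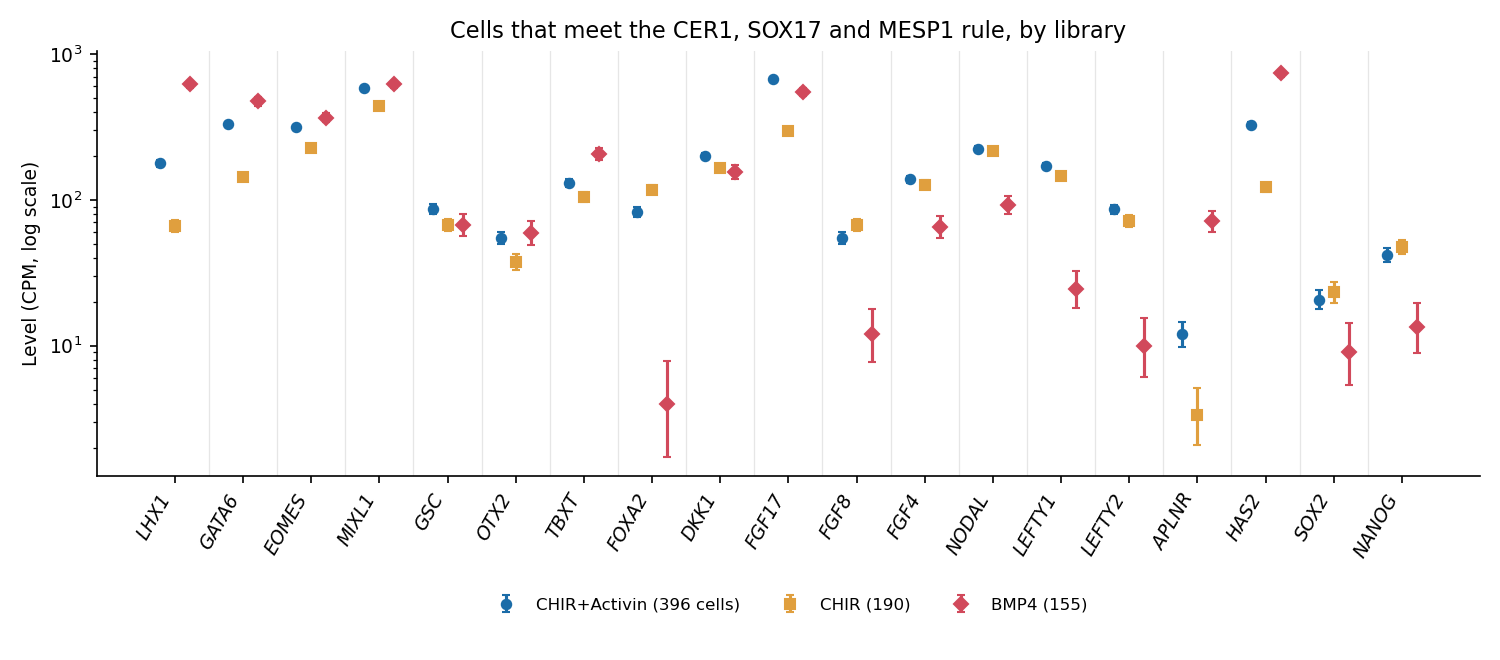
Levels (CPM, log axis) of 19 genes in cells that met the CER1, SOX17 and MESP1 rule in the CHIR+Activin (396 cells), CHIR (190) and BMP4 (155) libraries. Bars are exact 95% Poisson intervals that cover counting error only, with 1 library a treatment. MIXL1, GSC, OTX2 and DKK1 lie close together, and FOXA2, FGF8, LEFTY1 and LEFTY2 lie lowest under BMP4.

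Lists of markers of other cell types were summed in the CER1-high cells. Of the 7 axial mesoderm and node genes TBXT alone reached 10 CPM, at 130 CPM in CER1-high cells and 28.8 CPM in CER1=0 cells. The other members CHRD, NOG, NOTO, SHH, FOXJ1 and FOXD4 were each under 1 CPM in CER1-high cells, and FOXJ1 and FOXD4 had 0 UMIs. Of 4 measured nascent and paraxial mesoderm genes, APLNR, PDGFRA and HAS2 were at least 2-fold higher than in CER1=0 cells, and the 13 listed genes other than MESP1 summed to 423 CPM in CER1-high cells and 117 CPM in CER1=0 cells. Of 4 measured caudal epiblast genes, CDX1, EVX1 and CYP26A1 were at least 2-fold higher than in CER1=0 cells and NKX1-2 lower. The 6 listed caudal genes summed to 189 CPM in CER1-high cells, 231 CPM in SOX17-positive cells and 51.8 CPM in CER1=0 cells. CYP26A1 made up 151 CPM of this in CER1-high cells. The 8 amnion and trophoblast genes summed to 3.55 CPM in CER1-high cells, 2.78 CPM in SOX17-positive cells and 4.60 CPM in CER1=0 cells, and GATA3 had 0 UMIs. Of 8 germ cell genes 4 were measured, of which PRDM1 and KIT were at least 2-fold higher than in CER1=0 cells and PDPN lower, and the list summed to 98.1 CPM in CER1-high cells and 90.9 CPM in CER1=0 cells. Among the rest of that list, NANOS3 and TFAP2C were at 0.245 and 8.33 CPM in CER1-high cells and 0.182 and 10.7 CPM in CER1=0 cells. The 9 extraembryonic endoderm genes summed to 45.5 CPM in CER1-high cells and 9.26 CPM in CER1=0 cells. PDGFRA made up most of this, at 35.5 CPM in CER1-high cells and 3.91 CPM in CER1=0 cells (3.19, 2.94 to 3.43). TTR had 0 UMIs and AFP was at 0.613 CPM in CER1-high cells, while APOA2 was at 6.37 CPM in CER1-high cells, 16.7 CPM in SOX17-positive cells and 0.272 CPM in CER1=0 cells. The 10 lateral, cardiac or extraembryonic mesoderm genes summed to 17.6 CPM in CER1-high cells, 20.6 CPM in SOX17-positive cells and 5.80 CPM in CER1=0 cells. Dissociation genes summed to 265 CPM in CER1-high cells, 259 CPM in SOX17-positive cells and 297 CPM in CER1=0 cells, and integrated stress genes to 634 CPM in CER1-high cells, 562 CPM in SOX17-positive cells and 884 CPM in CER1=0 cells. Their part in the differences was not tested.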

How the data were processed

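Single-cell RNA was measured in 1 library per treatment by 10x Genomics Chromium 3' v3.1 chemistry. The values the authors deposited are raw UMI counts for each gene in each barcode. Per the file headers Cell Ranger 8.0.1 made them, and the submitters' processing notes also name Seurat. No genome build or annotation is stated in these sources, and coordinates are printed for RefSeq promoters alone. The CHIR+Activin and CHIR matrices held 7391 and 7706 called barcodes. The BMP4 matrix held all 1935344 barcodes, of which 9440 with at least 3739 UMIs (10% of the 99th percentile of the top 10000) were taken as cells. Cells needed at least 2000 genes and at most 15% mitochondrial UMIs, which kept 6876, 7084 and 9401 cells with 130592423, 185215378 and 137174566 UMIs under CHIR+Activin, CHIR and BMP4.

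The rule on raw UMIs picked the cells. UMIs were summed per group and scaled to CPM, so each group is 1 value with counting error and no replicates, and PCR and sampling of cells add error that the intervals leave out. Genes with at least 10 CPM in either group were compared, and "at least 2-fold" describes these libraries without a test. A group at 0 UMIs was set at 3 UMIs. Shares carry Clopper-Pearson intervals. For some shares cells were thinned to 10000 UMIs. Named genes were the 12 with the highest and the 12 with the lowest ratio among those with at least 50 CPM and a UMI in at least 10% of cells of the higher group, plus the markers and 32 gene lists. A few of these genes are not reported here. The members and the lists were chosen with earlier results of these data known. IDs without a symbol were mostly left out, and genes with near-identical copies may share UMIs. Doublets were scored with a Scrublet-type procedure and only left out as an alternative. The ratio step was tested on simulated data. Python 3.11.15, NumPy 2.4.6, SciPy 1.17.1, pandas 2.3.3, scikit-learn 1.9.0 and matplotlib 3.10.9 were used.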

Additional observations from a re-analysis of the deposited data

Results flagged for a closer look

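In 2 listed genes CER1-high SOX17-negative cells differed at least 2-fold from CER1=0 cells in opposite directions under CHIR+Activin and BMP4. The counting intervals of their log2 ratios lay on either side of 0. Smaller ratios of opposite sign were not counted. The difference rests on 1 library a treatment and was not tested. PRDM1, a zinc finger repressor of endoderm and germ cells, was at 23.4 CPM in CER1-high cells and 1.36 CPM in CER1=0 cells under CHIR+Activin (log2 ratio 4.10, 3.73 to 4.48). Under BMP4 it was at 12.5 CPM in CER1-high cells and 34.1 CPM in CER1=0 cells (-1.44, -2.07 to -0.88), a difference between the treatments of 5.55. Of the CER1=0 cells, 9 of 3730 under CHIR+Activin and 923 of 5377 under BMP4 had a SOX17 UMI, and the part of these cells in the PRDM1 ratios was not tested.

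CDX1, a caudal homeobox gene, was at 10.8 CPM in CER1-high cells and 4.54 CPM in CER1=0 cells under CHIR+Activin (1.25, 0.89 to 1.59). Under BMP4 it was at 4.51 CPM in CER1-high cells and 19.7 CPM in CER1=0 cells (-2.13, -3.26 to -1.20), a difference of 3.38.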

How the results depend on the processing

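No paired analysis was possible because each treatment is 1 library. Of the 1172 gene values under the alternatives, 884 stayed within the counting interval of the main value. Among those at least 2-fold apart in the main setting 0 changed sign, and sign changes of smaller ratios were not counted. Against CER1=0 cells, the genes at least 2-fold higher and lower came to 137 and 114 with at least 50 CPM, and to 9206 and 2210 with no CPM filter. Against cells with 1 to 9 CER1 UMIs in place of CER1=0 cells they came to 217 and 117. With a CER1 threshold of 5 UMIs the lower genes came to 197. Against SOX17-positive cells, the higher and lower genes came to 48 and 170 with a CER1 threshold of 5, 2 and 22 with at least 50 CPM, 1003 and 5483 with no filter, and 113 and 201 against cells with at least 3 SOX17 UMIs. The higher genes came to 31 without the highest doublet scores, 94 after thinning, 32 with totals free of mitochondrial and ribosomal genes, and 55 against SOX17-positive cells with at least 10 CER1 UMIs.

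The share of cells meeting the rule under CHIR+Activin was 11.7% and 2.21% with a CER1 threshold of 5 and 20, 6.72% with no condition on MESP1 and 3.09% after thinning. Under CHIR it was 8.84% and 0.678% with a threshold of 5 and 20, 1.45% with a threshold per 10000 UMIs and 0.450% after thinning. Under BMP4 it was 2.62% and 0.777% with a threshold of 5 and 20, 2.36% with a threshold per 10000 UMIs and 11.9% with no condition on MESP1. CHIR+Activin had the highest share under each of these except with no condition on MESP1, where BMP4 had it. Between treatments, alternatives added after the data were seen, thinning gave 589 higher and 647 lower genes over CHIR, where 31 CHIR cells were left, and 367 lower over BMP4. Causes were not tested. Depth limits the 25 cells at 40 or more CER1 UMIs, where 3 UMIs are 5.04 CPM.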
